A study of Mus musculus with 4 samples.

Results

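PRC1.6 is the non-canonical Polycomb repressive complex that silences germline genes, and 7 genes that encode its subunits were examined here: Mga, Max, E2f6, Tfdp1, Pcgf6, L3mbtl2 and Cbx3. The genes were picked by name as subunits of the complex, with earlier results of these data known, and all 7 were found among the 24411 genes listed in each file. Expression was measured by RNA-seq in GFP-positive cells sorted at postnatal day 18 from testes of mice labelled as a mixed C57BL/6 and CBA strain, whereas the methods of the study give a C57BL/6 background. The 2 control samples came from Zfp541+/- males, which carry 1 intact copy of the germ-cell zinc-finger gene Zfp541. The other 2 samples were labelled Zfp541 KO, from a line in which a long run of exons, from the first exon on, was deleted with Cas9. These are called the KO-labelled libraries below. All 4 carried a knock-in allele of Rec8, Rec8-3xFLAG-HA-p2A-GFP, which was heterozygous in 1 control and homozygous in the other 3 samples. The sample labels do not say which control this was, so knock-in dose and genotype cannot be fully told apart. GFP is made from the locus of the meiotic cohesin gene Rec8 and therefore marks cells in meiotic prophase, not a single stage of it. The design text gives each sample as a testis of its own, with no cultures or pooling mentioned.

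Polycomb group complexes keep genes silent by modifying histones, and PRC1.6 differs from the canonical complexes in that it carries its own DNA-binding subunits. MGA pairs with MAX to bind the E-box, and E2F6 pairs with DP1, the product of Tfdp1, to bind E2F sites, while PCGF6 holds the RING ligases that ubiquitinate histone H2A and L3MBTL2 and HP1γ, the product of Cbx3, are chromatin proteins of the complex. In embryonic stem cells and somatic cells, loss of the complex is known to release genes of meiosis and of the germline, and at meiotic entry these genes are switched on. The genes encoding the complex are themselves broadly expressed.

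The values are TPM, a unit of relative transcript abundance that corrects for gene length, so levels can be compared between genes, and that sums to the same total in each library. Sequencing depth is unknown, and no counting interval can be given. Group differences are given as log2 fold changes of TPM + 1 with their standard error (SE), KO-labelled minus control, from limma fitted over the 14512 genes that reached 1 TPM on average. All 7 genes passed this filter, each through its level in both groups. Zfp541 itself stood at 112 and 72.2 TPM in the controls, compared with 136 and 151 TPM in the KO-labelled libraries. Its transcript level was therefore not lower under that label, although a value per gene does not separate the deleted exons from the others, and each direction below is given by the labels.

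The libraries differed in their cell content, and in bulk RNA fewer cells of a type and less RNA per cell cannot be told apart. The summed level of 4 macrophage markers was 1568 and 15.3 TPM in the controls, compared with 1286 and 924 TPM in the KO-labelled libraries, and that of 5 Leydig cell markers was 2873 and 18.0 TPM against 324 and 491 TPM. No marker of either list separated the groups, and control 2 was the library low in both. The 9 leptotene and zygotene markers summed to 396 and 577 TPM in the controls, compared with 843 and 767 TPM in the other group. Of the 9, 7 were higher in both KO-labelled libraries, against 38.6% of all genes tested. For 9 pachytene markers the sums were 5111 and 2415 TPM against 1403 and 2040 TPM. Ldhc alone was at 3659 and 1819 TPM against 768 and 1230 TPM, and so made up most of these sums. In both KO-labelled libraries 4 were lower (Pgk2, Spag6, Ldhc and Ccna1), against 12.1% of all genes tested. Another 2 were higher (Mybl1 and Spdya), against 38.6%, and 3 overlapped between the groups. The marker counts were not repeated under other scalings. Within the pachytene list, Hist1h1t, the gene of the testis linker histone H1t, was at 1.00 to 2.55 TPM. The libraries were made from mRNA, and how well they capture this histone transcript was not tested, so its level is not read as cell content. Spermatogonial markers (9 genes) summed to 382 and 871 TPM against 579 and 530 TPM, and Sertoli cell markers (6 genes) to 782 and 643 TPM against 984 and 694 TPM. Peritubular myoid (3 genes), round spermatid (6 genes) and red blood cell markers (4 genes) did not exceed a sum of 71.5 TPM in any library, and Acrv1, Tnp1, Tnp2, Prm1, Prm2, Hbb-bs and Hba-a1 were each at 0 in at least 1 library. The part of cell content in the differences below was not tested.

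No gene passed an FDR of 0.05 in limma with Benjamini-Hochberg adjustment, neither among the PRC1.6 genes (0 of 7) nor among all genes tested (0.0%), and the smallest adjusted p overall was 0.31. At an unadjusted p under 0.05, 3 of the 7 were higher in the KO-labelled libraries (Mga, Max and Cbx3), against 10.7% of all genes tested, and 0 of 7 were lower, against 3.73%. For 5 of the 7 genes both KO-labelled libraries lay above both controls, as they did for 38.6% of all genes tested. For Tfdp1 both lay below, as for 12.1% of all genes. The median log2 fold change was 0.45 over the 7 genes and 0.28 over all genes tested. That shift of all genes bears on the direction of each result, since median-ratio scaling brings it to -0.0044 and changes the background from 38.6% and 12.1% to 23.1% higher and 22.3% lower. The split of unadjusted calls over all genes then goes from 1549 higher and 542 lower to 629 and 1079, and that of the 7 genes from 3 and 0 to 1 higher (Mga) and 1 lower (Tfdp1), with Max and Cbx3 no longer among them. After quantile normalization Mga and Cbx3 were the 2 genes with an unadjusted p under 0.05. Changes are therefore also given relative to the median of all genes. With 2 samples against 2, an exact two-sided permutation test cannot give a p under 0.33.

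**Figure D1:**
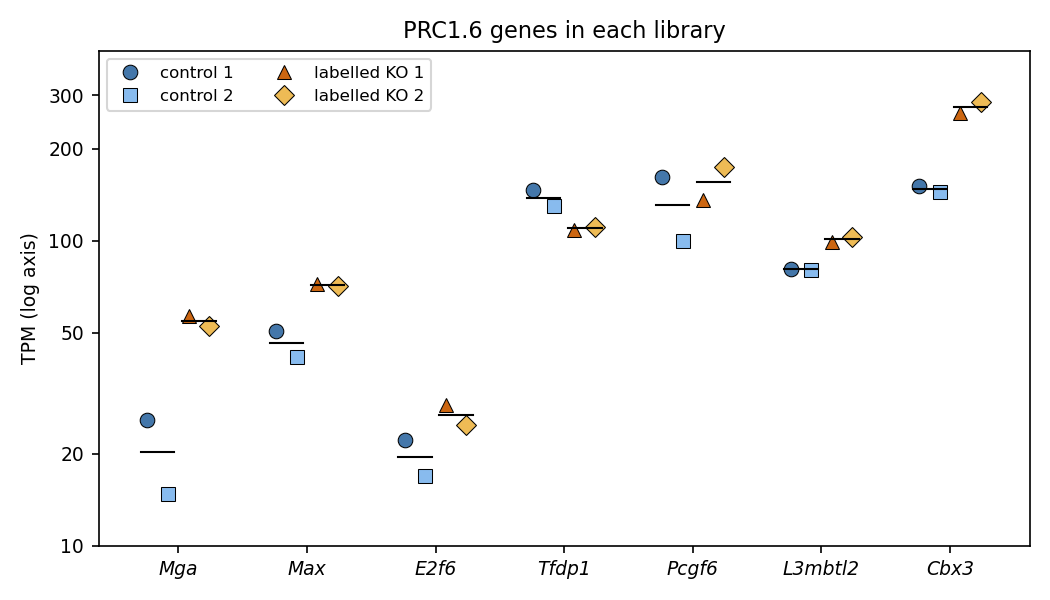
TPM of each PRC1.6 gene in the 4 libraries, on a log axis; symbols are single libraries and short black lines are group means (n = 2). Cbx3 and Mga show the widest gaps between the groups, Tfdp1 is the gene with both libraries labelled KO below both controls, and the groups of Pcgf6 overlap.

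The scaffold protein MGA carries both a T-box and a bHLH-zipper DNA-binding domain and dimerizes with MAX. Its gene (chromosome 2 of GRCm38.p6, 119872503 to 119970129) stood at 25.9 and 14.7 TPM in controls 1 and 2, compared with 56.5 and 52.7 TPM in KO-labelled libraries 1 and 2. Both of the latter were higher than either control, and the controls were further from each other than the KO-labelled libraries were. The log2 fold change of Mga was 1.43 (SE 0.34, 95% interval 0.51 to 2.36, adjusted p = 0.31 from limma), higher than that of 97.3% of the genes tested. Over the 4 pairs of one control and one KO-labelled library it ranged from 1.00 to 1.87, and relative to the median of all genes it was 1.15. After median-ratio scaling the log2 fold change of Mga was 1.12, and after quantile normalization 1.14.

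Max (chromosome 12, 76937269 to 76962323) encodes the bHLH-zipper partner that MGA shares with the MYC and MXD proteins. The level was 50.7 and 41.6 TPM in the controls, compared with 72.0 and 70.9 TPM in the KO-labelled libraries. The groups did not overlap, and the KO-labelled libraries were nearly at the same level. The log2 fold change of Max was 0.63 (SE 0.21, 95% interval 0.066 to 1.18, adjusted p = 0.33 from limma), 0.34 above the median of all genes. Transcripts of Mga and Max were closer in level in the KO-labelled libraries, where the ratio of Max to Mga TPM was 1.27 and 1.35, than in the controls, where it was 1.96 and 2.83. A ratio within a library does not depend on how libraries are scaled.

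E2f6 (chromosome 12, 16810909 to 16826752) encodes the E2F protein that represses without binding retinoblastoma proteins. The level was 22.1 and 16.9 TPM in the controls, compared with 28.8 and 24.9 TPM in the KO-labelled libraries. Both of the latter were higher, but the nearest libraries of the 2 groups were closer to each other than the controls were. Its log2 fold change was 0.45 (SE 0.28, 95% interval -0.32 to 1.21, adjusted p = 0.50 from limma), which was 0.17 above the median of all genes, and after quantile normalization the groups of E2f6 overlapped.

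Tfdp1 (chromosome 8, 13338725 to 13378448) encodes DP1, the dimer partner that E2F proteins need for DNA binding. The level was 147 and 130 TPM in the controls, compared with 109 and 111 TPM in the KO-labelled libraries. Both KO-labelled libraries were lower than both controls, the opposite order to Mga, Max, E2f6, L3mbtl2 and Cbx3. The log2 fold change of Tfdp1 was -0.33 (SE 0.18, 95% interval -0.81 to 0.15, adjusted p = 0.45 from limma), higher than that of only 15.9% of the genes tested. Relative to the median of all genes it was -0.61, after median-ratio scaling -0.65 and after quantile normalization -0.44.

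Pcgf6 (chromosome 19, 47033617 to 47050939) encodes the RING finger protein that gives the complex its name and that sets it apart from the other PRC1 complexes. The level was 162 and 100.2 TPM in the controls, compared with 136 and 174 TPM in the KO-labelled libraries. The groups overlapped, with control 1 above KO-labelled library 1. Its log2 fold change of 0.27 (SE 0.31, 95% interval -0.58 to 1.12, adjusted p = 0.70 from limma) was -0.012 relative to the median of all genes and became -0.051 after median-ratio scaling and -0.074 without control 2, so no direction can be given for Pcgf6.

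L3mbtl2 (chromosome 15, 81663889 to 81688315) encodes a protein with MBT repeats, which bind methylated lysines of histones. The libraries of each group lay close together, at 80.9 and 80.1 TPM in the controls, compared with 99.3 and 102.7 TPM in the KO-labelled libraries. The groups did not overlap, yet the log2 fold change of 0.32 (SE 0.17, 95% interval -0.14 to 0.79, adjusted p = 0.44 from limma) was 0.040 above the median of all genes. After median-ratio scaling it was 0.00057 and the groups of L3mbtl2 overlapped.

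Cbx3 (chromosome 6, 51470154 to 51483704) encodes HP1γ, a heterochromatin protein that binds methylated histone H3. The level was 151 and 144 TPM in the controls, compared with 263 and 286 TPM in the KO-labelled libraries. Both KO-labelled libraries were higher by far more than the libraries of either group differed among themselves. The log2 fold change of Cbx3 was 0.89 (SE 0.18, 95% interval 0.41 to 1.37, adjusted p = 0.31 from limma), 0.61 above the median of all genes and higher than that of 87.0% of the genes tested. After median-ratio scaling it was 0.57, and after quantile normalization 0.87. The mouse annotation (GENCODE) names 8 pseudogenes of Cbx3, of which 0 are listed in the files, and whether reads from such copies were counted to Cbx3 was not tested.

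Leaving out a control moved several of these calls. In these fits the lone control is assumed to vary like the KO-labelled libraries. Without control 1, 4 of the 7 genes passed an FDR of 0.05 in limma, namely Mga (log2 fold change 1.82, adjusted p = 0.0092), Max (0.76, adjusted p = 0.012), Cbx3 (0.92, adjusted p = 0.010) and E2f6 (0.63, adjusted p = 0.048). Without control 2, 4 of the 7 passed as well, namely Mga (1.05, adjusted p = 0.024), Cbx3 (0.86, adjusted p = 0.024), Max (0.49, adjusted p = 0.044) and Tfdp1 (-0.42, adjusted p = 0.047). These fits called 48.1% and 28.4% of all genes tested, so a call there says little of a single gene. Without either KO-labelled library no gene passed, and over all 13 alternatives the adjusted p of limma ran up to 1.0 for each of these 5 genes.

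**Figure D2:**
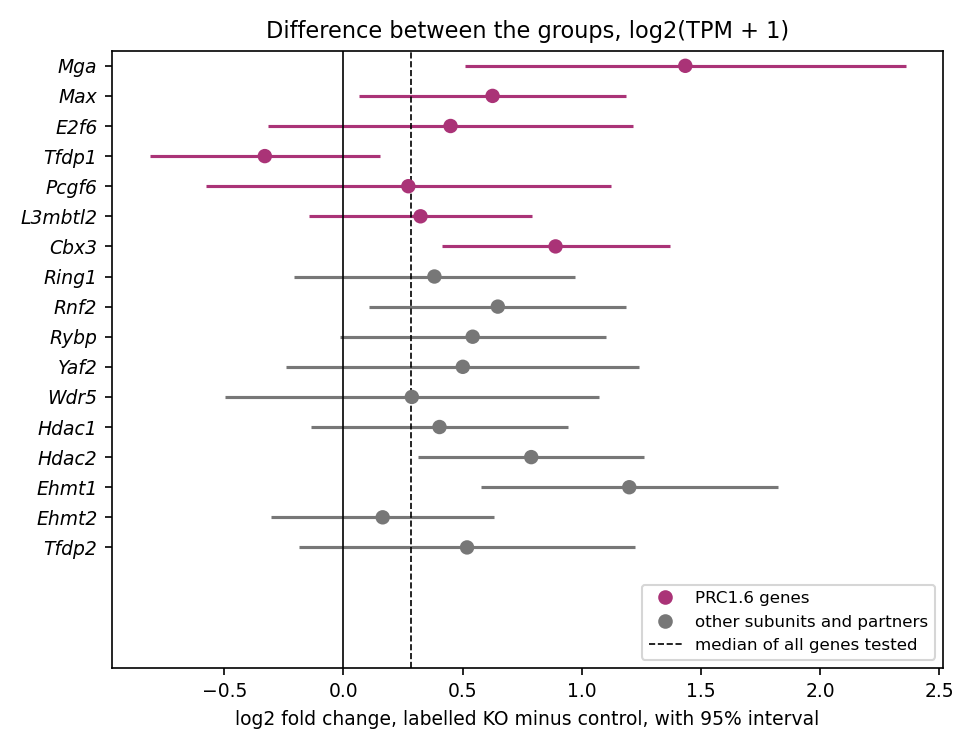
Log2 fold change of TPM + 1 (labelled KO minus control, n = 2 each) with its 95% interval from limma for the 7 PRC1.6 genes and for 10 other subunits and partners; the dashed line is the median of all genes tested, 0.28. Tfdp1 is the one PRC1.6 gene with a value below 0 (Pcgf6 joins it, at -0.051, after median-ratio scaling), and the intervals of Mga and Cbx3, like those of Ehmt1 and Hdac2 among the other subunits, lie above the dashed line.

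As a share of the summed TPM of the 7 genes, which is independent of scaling between libraries, Cbx3 made up 23.6% and 27.3% in the controls and 34.4% and 34.8% in the KO-labelled libraries. Tfdp1 made up 22.9% and 24.7% against 14.2% and 13.5%. Mga went the way of Cbx3, at 4.05% and 2.79% against 7.39% and 6.41%. The shares of Max did not overlap either, at 7.92% and 7.89% against 9.41% and 8.62%, whereas those of E2f6, Pcgf6 and L3mbtl2 did. The ratio of Cbx3 to Tfdp1 TPM was 1.03 and 1.11 in the controls and 2.42 and 2.58 in the KO-labelled libraries. E2f6 was at 0.15 and 0.13 times the level of its partner Tfdp1 in the controls, and at 0.27 and 0.22 times in the KO-labelled libraries. The summed level of the 7 genes was 640 and 528 TPM against 765 and 822 TPM.

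In the controls the order of the mean levels was Cbx3 (148 TPM), Tfdp1 (138 TPM), Pcgf6 (131 TPM), L3mbtl2 (80.5 TPM), Max (46.2 TPM), Mga (20.3 TPM) and E2f6 (19.5 TPM). Tfdp1 and Pcgf6, and Mga and E2f6, changed order between the 2 controls and so were not separated there. Cbx3 was above Tfdp1 within each control, at 1.03 and 1.11 times its level, although their ranges over the 2 controls overlapped. In the KO-labelled libraries the order was Cbx3 (275 TPM), Pcgf6 (155 TPM), Tfdp1 (109.8 TPM), L3mbtl2 (101 TPM), Max (71.4 TPM), Mga (54.6 TPM) and E2f6 (26.9 TPM), and no neighbours overlapped. Mga and E2f6, at a similar level in the controls, were thus apart in the KO-labelled libraries. Among the genes tested, E2f6 ranked between the 48.2 and 53.9 percentile of TPM in every library, while Cbx3 ranked at the 90.2 and 90.6 percentile in the controls and the 95.4 and 95.9 percentile in the KO-labelled libraries.

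The share of each gene in its own family was compared next, to set it beside its paralogues. Mga made up 13.1% and 9.28% of the summed TPM of 9 MAX partner genes in the controls and 23.3% and 22.5% in the KO-labelled libraries. The groups did not overlap, and the difference of 11.7 percentage points was larger than the spread within either group (exact two-sided permutation p = 0.33, the smallest possible). Of the other partners, the repressor gene Mnt was at 22.3 and 9.54 TPM against 31.0 and 28.1 TPM and Mxi1 at 45.6 and 35.8 TPM against 55.7 and 54.5 TPM. Mxd4, the most abundant, was at 65.1 and 66.6 TPM against 64.9 and 63.6 TPM (log2 fold change -0.036), and Mxd3 was at 2.67 to 3.04 TPM over the 4 libraries (log2 fold change -0.079). In both genes the KO-labelled libraries were lower by a small margin. Mxd1 was at 13.8 to 20.6 TPM and overlapped. The activator genes Myc (0.020 to 8.70 TPM), Mycn (5.92 to 11.4 TPM) and Mycl (1.27 to 3.98 TPM) overlapped between the groups.

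Tfdp1 made up 88.7% and 88.4% of the summed TPM of Tfdp1 and Tfdp2 in the controls and 79.6% and 82.0% in the KO-labelled libraries. The paralogue Tfdp2 was at 18.8 and 17.02 TPM against 27.9 and 24.3 TPM, so the 2 DP genes differed in opposite directions (log2 fold changes -0.33 and 0.52, adjusted p = 0.45 and 0.42 from limma). The order of Tfdp2 held under median-ratio scaling (0.21), while after quantile normalization (0.25) its groups overlapped. The exact two-sided permutation p of the share was again 0.33, the smallest possible.

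**Figure D3:**
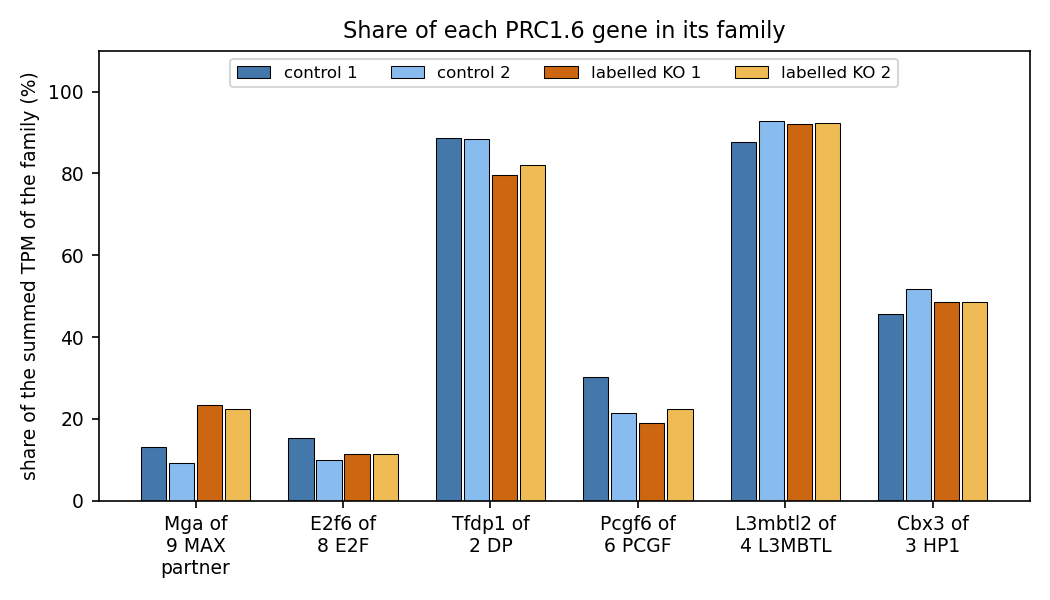
Share of each PRC1.6 gene in the summed TPM of its family, in percent, in the 4 libraries (bars from 0). The bars of Mga are higher and those of Tfdp1 lower in both libraries labelled KO, and the groups overlap for the other 4 genes.

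E2f6 made up 15.3% and 10.1% of the summed TPM of the 8 E2F genes in the controls and 11.5% and 11.3% in the KO-labelled libraries, so the groups overlapped (exact two-sided permutation p = 1.0). The most abundant E2F gene on average was E2f5, at 32.2 and 54.0 TPM against 91.0 and 88.1 TPM (log2 fold change 1.08, adjusted p = 0.32 from limma). E2f3, at 5.40 and 5.59 TPM against 12.9 and 10.4 TPM, and E2f4, at 49.2 and 48.7 TPM against 63.9 and 54.3 TPM, also did not overlap between groups, though E2f4 turned to -0.058 after median-ratio scaling. E2f1 (13.7 to 35.4 TPM), E2f2 (2.63 to 9.74 TPM), E2f7 (3.79 to 8.82 TPM) and E2f8 (1.66 to 10.5 TPM) overlapped.

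Among the 6 PCGF genes, which define the separate PRC1 complexes, Pcgf6 held 30.3% and 21.4% in the controls and 18.9% and 22.5% in the KO-labelled libraries, and the groups overlapped (exact two-sided permutation p = 0.67). Pcgf5 was the most abundant, at 194 and 197 TPM against 317 and 335 TPM (log2 fold change 0.73, adjusted p = 0.31 from limma). Bmi1, the PCGF gene of canonical PRC1, was at 80.9 and 67.5 TPM against 152 and 149 TPM (log2 fold change 1.02, adjusted p = 0.31 from limma). Pcgf3 was at 27.2 and 23.9 TPM against 44.0 and 43.3 TPM. Pcgf2 was at 12.2 to 17.8 TPM, and its KO-labelled libraries were both above both controls by a small margin that was lost under both scalings. Pcgf1, at 58.7 and 65.8 TPM against 55.9 and 59.0 TPM, overlapped between the groups but was lower in both KO-labelled libraries after median-ratio scaling (log2 fold change -0.43) and quantile normalization (-0.34).

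Cbx3 held 45.6% and 51.8% of the summed TPM of the 3 HP1 genes in the controls and 48.6% and 48.6% in the KO-labelled libraries (exact two-sided permutation p = 1.0). The higher level of Cbx3 was thus shared by Cbx1, the HP1β gene, at 132 and 114 TPM against 236 and 256 TPM (log2 fold change 1.00, SE 0.19, adjusted p = 0.31 from limma). Cbx5, the HP1α gene, was at 47.8 and 20.3 TPM against 43.3 and 46.7 TPM and overlapped between the groups. L3mbtl2 held 87.8% and 92.9% of the summed TPM of the 4 L3MBTL genes against 92.2% and 92.2% (exact two-sided permutation p = 1.0). Its paralogues L3mbtl3 and L3mbtl4 stayed between 2.56 and 6.10 TPM, and L3mbtl1 was below the filter, at 0 to 0.81 TPM.

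Of 10 other subunits and partners of PRC1.6, 9 were higher in both KO-labelled libraries than in both controls, against 38.6% of all genes tested, and 0 passed an FDR of 0.05 in limma. After median-ratio scaling 6 were higher, against 23.1% of all genes, and 1, Ehmt2, lower, against 22.3%. At an unadjusted p under 0.05, 3 were higher (Rnf2, Hdac2 and Ehmt1), against 10.7% of all genes, of which Ehmt1 was left after median-ratio scaling. After quantile normalization 7 were higher and 0 lower without overlap, against 27.8% and 19.4% of all genes, and 3 were higher at an unadjusted p under 0.05. The median log2 fold change was 0.51 against 0.28 over all genes. The RING ligase gene Rnf2 stood at 115 and 92.8 TPM in the controls, compared with 160 and 166 TPM in the KO-labelled libraries (log2 fold change 0.65, adjusted p = 0.32 from limma), and its paralogue Ring1 was at 52.2 and 41.3 TPM against 61.3 and 60.3 TPM. The adaptor genes Rybp, at 48.2 and 40.4 TPM against 66.3 and 63.1 TPM, and Yaf2, at 30.3 and 45.0 TPM against 53.8 and 51.6 TPM, also did not overlap, although Yaf2 did after either scaling.

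The histone H3 lysine 9 methyltransferase gene Ehmt1 had the largest log2 fold change of the 10, 1.20 (SE 0.23, adjusted p = 0.31 from limma), from 19.2 and 17.5 TPM to 42.9 and 43.8 TPM. Its partner Ehmt2 was at 143 and 135 TPM against 160 and 151 TPM, a log2 fold change of 0.16 that was -0.12 relative to the median of all genes and turned to -0.16 after median-ratio scaling. Hdac2 was at 149 and 161 TPM against 272 and 265 TPM (log2 fold change 0.79, adjusted p = 0.31 from limma), and Hdac1 at 226 and 218 TPM against 324 and 267 TPM, with overlap after median-ratio scaling. Wdr5 was the one that overlapped, at 108 and 175 TPM against 170 and 167 TPM.

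Promoter sequences were searched for the letters that the DNA-binding subunits recognize, TCCCGC on either strand (read as GCGGGA on the other) for E2F6 with DP1, and the palindrome CACGTG for MGA with MAX. The windows span 250 bases before to 50 after a RefSeq start on GRCm38.p6, the build that UCSC calls mm10. The 2 motifs can share bases, which happened in 2 of 32851 windows. In the windows of all 27025 genes in the table, an E2F motif was present for 22.0% and an E-box for 8.09%, and among the genes tested here for 38.4% and 11.7% of the 10924 with a window. All 7 PRC1.6 genes had a window. An E2F motif was present for 2 of them (E2f6 and Tfdp1) and an E-box for 2 (Max and Tfdp1), whereas the windows of Mga, Pcgf6, L3mbtl2 and Cbx3 held neither. A match is a description of letters, and no binding was measured.

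The stretches with matches are shown for the 3 genes. Tfdp1 holds 3 E2F motifs and 1 E-box in its first listed window, whereas Max and E2f6 hold 1 match each. Another window of Tfdp1 holds E2F motifs alone. Tfdp1 was also the one PRC1.6 gene lower in both KO-labelled libraries, but a link between motifs and direction was not tested. Capitals mark the motifs, and each stretch reads from 5′ to 3′ on the strand of its gene.
Max (chr12:76962234-76962263, minus strand): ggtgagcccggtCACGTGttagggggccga
E2f6 (chr12:16810900-16810929, plus strand): ggaccggtgtgcGCGGGAgatctaacggac
Tfdp1 (chr8:13338508-13338690, plus strand): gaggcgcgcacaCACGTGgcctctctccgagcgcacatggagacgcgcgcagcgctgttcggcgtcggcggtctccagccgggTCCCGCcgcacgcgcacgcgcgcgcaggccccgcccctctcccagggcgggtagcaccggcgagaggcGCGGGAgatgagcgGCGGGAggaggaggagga

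Germline genes were then listed from general knowledge as known targets of PRC1.6 or E2F6 in embryonic stem cells or somatic cells, and 18 of 19 were found in the files under their symbols, the exception being Meiosin. These genes are normally expressed in spermatocytes, and Stra8 and several axis genes also mark meiotic stages. Of the 18, 10 were higher and 3 lower in both KO-labelled libraries than in both controls, against 38.6% and 12.1% of all genes tested. None (0 of 18) passed an FDR of 0.05 in limma, and 7 were higher and 1 lower at an unadjusted p under 0.05, against 10.7% and 3.73% of all genes. Their median log2 fold change was 0.62, against 0.28 over all genes tested, and 14 of the 18 lay above the latter. After median-ratio scaling the median was 0.30, and 7 were higher and 3 lower without overlap, against 23.1% and 22.3% of all genes. At an unadjusted p under 0.05, 1 was then higher (Smc1b) and 2 lower (Mael and Tuba3a). After quantile normalization the median was 0.67, against 0.077 over all genes, and 11 were higher and 2 lower without overlap, against 27.8% and 19.4%. At an unadjusted p under 0.05, 8 were then higher and 0 lower, against 1010 and 1009 of the 14512 genes tested. Without control 1, 12 of the 18 passed, and without control 2, 13 did, in fits that called 48.1% and 28.4% of all genes. Of the 9 leptotene and zygotene markers, 7 were higher in both KO-labelled libraries, against 38.6% of all genes. These markers went the same way as most of the germline genes listed, and their part in the result was not tested.

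Smc1b, the gene of a meiotic cohesin subunit, had the highest log2 fold change, 1.22 (SE 0.25, adjusted p = 0.31 from limma), at 232 and 165 TPM in the controls, compared with 455 and 459 TPM in the KO-labelled libraries. Hormad1, a gene of the meiotic chromosome axis, was next, at 531 and 728 TPM against 1145 and 1232 TPM (log2 fold change 0.93, adjusted p = 0.32 from limma). Dazl, which encodes an RNA-binding protein of germ cells, followed at 417 and 690 TPM against 1047 and 939 TPM (log2 fold change 0.89, adjusted p = 0.35 from limma). In all 3 genes both KO-labelled libraries were above both controls, which for Dazl did not hold after median-ratio scaling.

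At the other end of the list, Tuba3a, a testis α-tubulin gene, stood at 2298 and 2044 TPM in the controls, compared with 1019 and 1177 TPM in the KO-labelled libraries (log2 fold change -0.98, SE 0.29, adjusted p = 0.32 from limma). Its near-identical copy Tuba3b was at 2958 and 2533 TPM against 1581 and 1953 TPM (log2 fold change -0.64, adjusted p = 0.44 from limma). The division of reads between such copies is uncertain. Mael, a gene of the piRNA pathway, was at 1194 and 1039 TPM against 719 and 778 TPM (log2 fold change -0.57, adjusted p = 0.38 from limma). These 3 genes were lower in both KO-labelled libraries, except Tuba3b after quantile normalization, when its groups overlapped. With median-ratio scaling Stag3 also had a log2 fold change below 0, which made 4 in all.

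**Figure D4:**
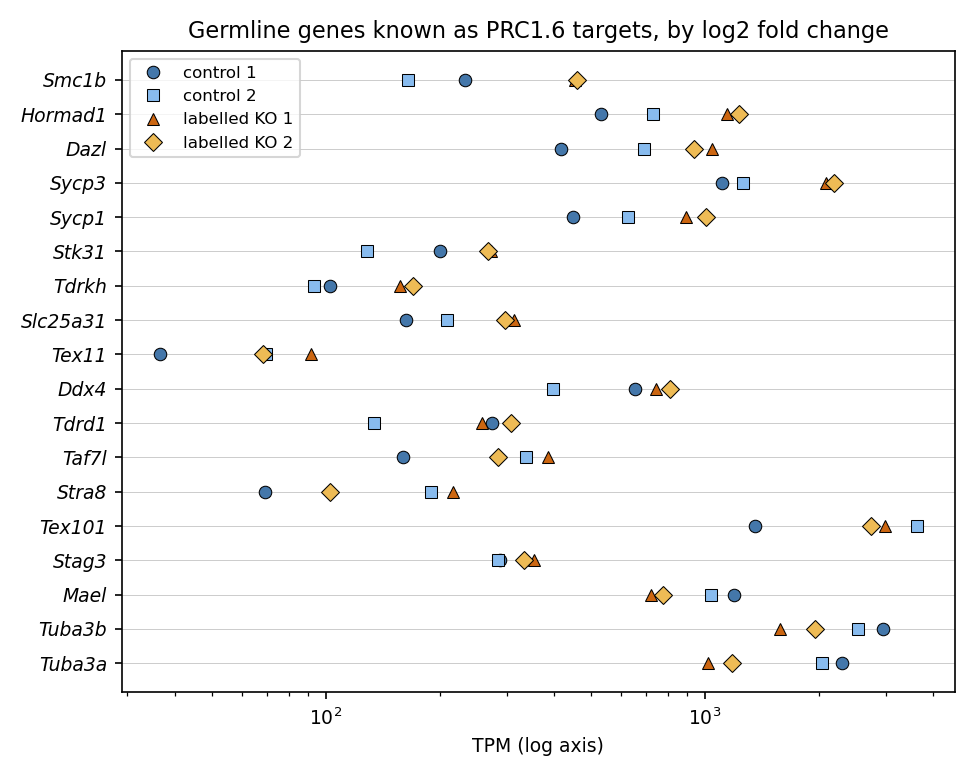
TPM of 18 germline genes known as PRC1.6 or E2F6 targets in the 4 libraries, on a log axis and ordered by log2 fold change from Tuba3a (bottom, -0.98) to Smc1b (top, 1.22). In 10 genes both libraries labelled KO lie above both controls, and in Mael, Tuba3a and Tuba3b both lie below. None passed an FDR of 0.05. In place of 10, 7 lay above after median-ratio scaling and 11 after quantile normalization.

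Of the 17 germline genes with a promoter window, 10 held an E2F motif (58.8%), 10 an E-box (58.8%) and 7 both in 1 window (41.2%), against 38.4%, 11.7% and 4.41% of the genes tested. Since the genes were listed as targets of factors known to bind these letters, the motifs are not independent of the choice. Matches were present in genes of either direction, and Dazl and Tdrkh, higher in both KO-labelled libraries, held none.

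The stretches below show both motifs together in genes of the chromosome axis and synaptonemal complex (Hormad1, Sycp3, Sycp1) in Slc25a31, the gene of a testis ADP/ATP carrier, and in Mael, which was lower in both KO-labelled libraries, and a single E2F motif in Smc1b and in the tubulin genes. Capitals mark the motifs and each stretch reads from 5′ to 3′ on the strand of its gene.
Hormad1 (chr3:95559570-95559674, plus strand): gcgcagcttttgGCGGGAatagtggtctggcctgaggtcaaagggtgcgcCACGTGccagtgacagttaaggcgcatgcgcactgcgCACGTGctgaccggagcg
Sycp3 (chr10:88459428-88459561, plus strand): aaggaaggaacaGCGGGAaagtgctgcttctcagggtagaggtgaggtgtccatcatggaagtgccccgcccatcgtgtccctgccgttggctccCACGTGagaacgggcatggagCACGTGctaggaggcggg
Sycp1 (chr3:102936081-102936206, minus strand): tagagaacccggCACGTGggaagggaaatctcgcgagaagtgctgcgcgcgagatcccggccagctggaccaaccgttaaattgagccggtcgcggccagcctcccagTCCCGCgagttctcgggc
Smc1b (chr15:85131987-85132016, minus strand): aaaagaatttctTCCCGCgctttttttttt
Slc25a31 (chr3:40708766-40708900, plus strand): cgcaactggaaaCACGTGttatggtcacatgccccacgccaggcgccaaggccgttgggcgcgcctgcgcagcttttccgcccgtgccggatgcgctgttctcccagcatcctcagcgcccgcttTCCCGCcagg
Mael (chr1:166238716-166238979, minus strand): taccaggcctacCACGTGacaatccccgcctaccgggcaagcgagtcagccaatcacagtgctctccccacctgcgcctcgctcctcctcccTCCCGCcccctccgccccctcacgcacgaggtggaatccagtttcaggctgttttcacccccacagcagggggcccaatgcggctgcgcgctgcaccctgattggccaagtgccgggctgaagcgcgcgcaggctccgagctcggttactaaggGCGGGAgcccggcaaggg
Tuba3a (chr6:125286183-125286212, minus strand): actccagagcctTCCCGCcaaagccacatc
Tuba3b (chr6:145615845-145615874, plus strand): actccagagcctTCCCGCcaaatttacatc

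Sycp3 stood at 1108 and 1263 TPM in the controls, compared with 2093 and 2196 TPM in the KO-labelled libraries, Sycp1 at 449 and 626 TPM against 895 and 1005 TPM, and Slc25a31 at 163 and 209 TPM against 313 and 297 TPM. All 3 were higher in both KO-labelled libraries, while Mael, with the same pair of motifs, and Tuba3a and Tuba3b, which share the letters around their E2F motif, were lower. Neither the E2F motif nor both motifs together went with one direction among these genes.

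**Figure D5:**
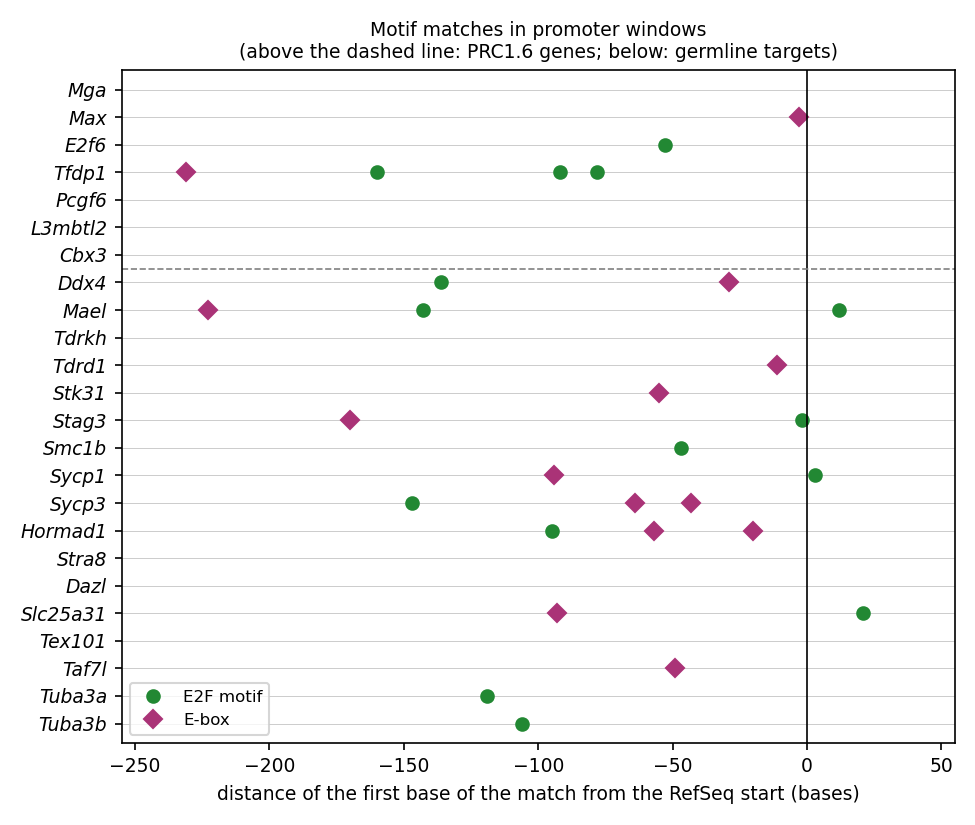
Position of E2F motifs (circles) and E-boxes (diamonds) in the first listed promoter window of each PRC1.6 gene (above the dashed line) and of 17 germline targets (below), as the distance in bases of the first letter from the RefSeq start. Tfdp1 carries 4 matches and Mga, Pcgf6, L3mbtl2 and Cbx3 none.

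Genes with the most similar pattern were sought by the Euclidean distance between log2(TPM + 1) profiles centred on their mean over the 4 samples, among all 14512 genes tested. The closest 2 genes to Mga were Rwdd3 (distance 0.022) and Zkscan8 (0.057), the former at 9.24 and 4.92 TPM in the controls, compared with 21.1 and 19.6 TPM in the KO-labelled libraries. For Cbx3 they were Smarcc1, a SWI/SNF subunit gene, at 65.7 and 61.2 TPM against 116 and 126 TPM (distance 0.038), and the translation factor gene Eif4b (0.042). For Tfdp1 they were Cops7a, a COP9 signalosome gene, at 297 and 259 TPM against 219 and 221 TPM (0.020), and Mrpl39, a mitochondrial ribosomal protein gene (0.026). Max was closest to Rbsn (0.025) and Uba3 (0.034), E2f6 to LOC106740 (0.037) and Map4k2 (0.044), Pcgf6 to Thoc7 (0.033) and Zfp619 (0.040), and L3mbtl2 to Ddx31 (0.016) and Tmem70 (0.019). With 4 samples such profiles are common, and 497 genes lay within a distance of 0.5 of Mga, 2384 of Cbx3, 1792 of Tfdp1 and 4205 of L3mbtl2. Mga had the fewest such genes of the 7. This count falls as the differences between libraries grow, and Mga had the largest log2 fold change of the 7, so it is not a separate result.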

How the data were processed

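RNA was measured by single-end mRNA-seq in 2 control Zfp541+/- and 2 Zfp541 KO samples, grouped by their labels. Per the submitters' processing notes and methods, the authors trimmed reads with Trim Galore 0.5.0 (cutadapt 1.16), aligned them to UCSC mm10 with STAR 2.6.0a and deposited gene TPM from RSEM 1.3.1, one file per sample. TPM keeps no depth, so no count model was used. Here log2(TPM + 1) of the 14512 genes reaching 1 TPM on average was fitted by genotype with limma 3.58.1 in R 4.3.3, using its trended prior variance, and p-values were adjusted over all of them by the Benjamini-Hochberg method. The procedure was run on simulated data, only to see that the mean estimate lay near the planted change. The simulation held no shift or difference in cell content between libraries. Shares were compared by exact permutation (SciPy 1.17.1). Coordinates and promoter windows came from RefSeq on GRCm38.p6, and motifs were searched in Python 3.11.15. The genes examined and the lists (families, partners, germline targets, markers) were chosen with earlier results of these data known. Named genes were the PRC1.6 genes, Zfp541, all families and partners, the 3 highest and 3 lowest germline targets, and the 2 nearest patterns of each PRC1.6 gene. Sycp3, Sycp1, Slc25a31, Stag3, Tdrkh, Hist1h1t and the 4 lower and 2 higher pachytene markers were named after their values were seen. Alternatives covered the pseudocount, filter, scaling, variance model, replicate block and each sample left out. P-values measure the spread between these samples only.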

Additional observations from a re-analysis of the deposited data

How the results depend on the processing

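Depth is unknown from TPM, and 2 samples a group limit every test. No PRC1.6 gene (0 of 7) passed an FDR of 0.05 in limma in any alternative fitted on the 4 samples. Genes past an FDR of 0.05 in limma numbered 0 as reported (2091 at an unadjusted p under 0.05), 2 without a filter, and from 0 to 6985 with a sample left out, where PRC1.6 genes past it ranged from 0 to 4 and germline targets from 0 to 13. Unadjusted calls numbered 1107 with the replicate block and from 191 to 8383 with a sample left out. With the replicate block, 0 genes and 0 PRC1.6 genes passed, and of the 3 PRC1.6 genes with an unadjusted p under 0.05, Mga and Cbx3 were left while Max was not. Same-numbered samples share only a number (correlation of their deviations across genes -0.16). With the numbers crossed as the block, chosen after seeing the data, 7 genes were higher and 80 lower, 87 in all.

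With a sample left out, the log2 fold change ranged from 1.05 to 1.82 for Mga, 0.49 to 0.76 for Max, 0.27 to 0.63 for E2f6, -0.42 to -0.24 for Tfdp1, -0.074 to 0.62 for Pcgf6, 0.30 to 0.35 for L3mbtl2 and 0.83 to 0.95 for Cbx3. Pcgf6 was at -0.051 with median-ratio scaling, which removes the shift shared by all genes. L3mbtl2, at 0.00057 there, had no direction. Mga, Max, E2f6, Tfdp1 and Cbx3 kept their direction in all 13 alternatives, but most of these could not have changed it. Those of the filter, the variance model and the block leave each log2 fold change as it was. In these genes both KO-labelled libraries lay on one side of both controls. The pseudocount and the samples left out therefore could not reverse them either. Only median-ratio scaling and quantile normalization could, and the direction held under both. The difference in family share ranged from 9.85 to 13.6 percentage points for Mga and from -8.96 to -6.54 for Tfdp1. The groups did not overlap in these shares, so leaving out a sample could not bring the difference across 0. For Pcgf6, whose groups overlapped, the difference ranged from -9.56 to -0.75. It crossed 0 for E2f6 (-3.90 to 1.36), L3mbtl2 (-0.70 to 4.39) and Cbx3 (-3.27 to 2.93).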
